A study of Mus musculus with 35 samples.

Results

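Messenger RNA was compared between Mettl14 knockout (KO) and wild-type (WT) neural progenitor cells of the third RNA batch of the series. The comparison rests on 4 of the 35 samples: 2 KO libraries from the culture lines 530 and 534, and 2 WT libraries from the lines 532 and 541. They were chosen by their batch and genotype labels, and not by any measured value. All 4 are RNA of mouse cells of embryonic stage. The KO genotype is a homozygous loss of Mettl14. Per the labels' protocols, exon 2 of the allele was flanked by loxP sites, male Mettl14 f/+ mice were bred to EIIa-Cre females, and the resulting Mettl14 +/- mice were intercrossed. EIIa-Cre acts in the early embryo, so the allele is lost from the whole animal and not from the brain alone. The same protocols also describe f/f animals carrying nestin-Cre, and the labels of these 4 samples do not say which cross gave the KO lines. WT lines carry no Mettl14 deletion by their labels. The replicate is the culture line, and each group therefore holds 2 lines of its genotype. No treatment is given for either group.

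N6-methyladenosine (m6A) is a methyl mark placed on messenger RNA in the nucleus by a complex in which METTL3 is the catalytic subunit and METTL14 binds the RNA and holds METTL3 in its active form. Reader proteins of the YTH family bind the mark and promote decay, export or translation of the marked RNA, and the enzymes FTO and ALKBH5 can remove it. Neural progenitors, of which radial glia are the best known kind, divide in the embryonic brain and give rise to neurons and then to glia. H3K27ac (histone H3 acetylated at lysine 27) marks active promoters and enhancers. H3K27me3 (trimethylated at the same lysine) is placed by Polycomb complex 2 and marks silent ones.

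The KO libraries held 14.9 M and 17.48 M fragments and the WT libraries 16.24 M and 15.02 M. Levels are given in CPM, the fragments of a gene per M fragments of its library, scaled between libraries, and a library is named by its group and number, because the deposited table does not tie a numbered library to a culture line. Multidimensional scaling of the 4 libraries used the genes that differed most between each pair of libraries. It separated the genotypes on its main axis, which carried 72.1% of the variance in these distances. That axis placed the KO libraries at −1.40 and −1.24 and the WT libraries at 1.31 and 1.32. The second axis (17.8%) placed KO library 1 and WT library 2 on one side (0.69 and 0.62) and KO library 2 and WT library 1 on the other (−0.73 and −0.58). The same pairs of libraries shared their sex-linked transcripts. Xist, the RNA that silences one X chromosome in females, was at 0.199 and 1758 CPM in KO libraries 1 and 2, against 2715 and 0.541 CPM in WT libraries 1 and 2. The Y-linked gene Ddx3y was at 111 and 0.115 CPM in KO, against 0.125 and 105 CPM in WT. Each genotype therefore held 1 library with Y-linked transcripts and 1 with Xist, and the pattern was not tied to genotype.

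The neural progenitor genes Sox2, Nes and Vim were abundant in all 4 libraries. Not every progenitor marker was. Pax6, given further below, lay under the median of all genes tested in KO (35.5 CPM) and somewhat above it in WT (33.4 CPM). Sox2, a transcription factor of neural stem cells, was at 843 and 868 CPM in KO, against 474 and 410 CPM in WT. Nes, the filament protein nestin, was at 868 and 890 CPM in KO, against 1500 and 1833 CPM in WT. The filament gene Vim was at 1071 and 1241 CPM in KO, against 2987 and 3547 CPM in WT. Markers of the other cell types listed here were low, and genes of neurons, astrocytes and the oligodendrocyte lineage are given further below. Summed over 8 microglial markers the level was 1.66 and 1.84 CPM in KO, against 3.11 and 2.17 CPM in WT, with 2 markers (Cx3cr1 among them) at 0 in every library. Summed over 8 endothelial markers it was 6.18 and 6.5 CPM in KO, against 2.80 and 2.98 CPM in WT, and the defining markers Pecam1 and Cdh5 stayed under 1 CPM in every library. Summed over 10 fibroblast and mural markers it was 13.2 and 21.8 CPM in KO, against 9.90 and 7.17 CPM in WT, with 2 at 0 throughout. Choroid plexus and ependymal markers summed to 16.4 and 17.0 CPM in KO and 31.8 and 31.9 CPM in WT, and 4 erythroid markers to 0.532 and 0.345 CPM in KO and 1.06 and 1.01 CPM in WT. The embryonic stem cell factor Pou5f1 had no fragment in any library, and its list summed to 17.5 and 22.8 CPM in KO and 37.3 and 48.1 CPM in WT, most of it Klf4 and Esrrb.

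Mettl14 itself (chromosome 3, 123368293 to 123385990, minus strand, mm10) was at 30.4 and 22.8 CPM in KO, against 37.8 and 35.5 CPM in WT. The libraries did not overlap, but the difference did not pass the test (log2 fold change −0.47, SE 0.18, adjusted p = 0.0842). It passed with a covariate for sex-linked transcripts (adjusted p = 0.0361) and without KO library 1 (0.00347), in a range of 0.00347 to 0.348 over the 12 alternatives. The count covers the whole locus, so fragments of exons outside the deleted exon 2 are included and the count does not measure the deletion. Fold changes here are KO over WT on the log2 scale, and a gene is called at an adjusted p below 0.05 in edgeR's quasi-likelihood test, which is two-sided.

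Of 12834 genes tested, 4076 were called (31.8%), 2221 of them higher in KO (17.3%) and 1855 lower (14.5%). These shares are the background against which any count below has to be read. The libraries of the 2 genotypes did not overlap for any of the 4076, and they did not overlap for 69.1% of all genes tested, 34.5% with KO higher and 34.5% with KO lower. The median over all genes was 0.00, and the called genes had medians of 0.90 where higher and −0.83 where lower. Falls outnumbered rises among the largest changes alone: 942 genes rose and 746 fell by more than 1 on the log2 scale, whereas 187 rose and 294 fell by more than 2, and 47 rose and 94 fell by more than 3. The number called depended on single libraries: it went down without either WT library and up without either KO library. It was 1324 higher and 1022 lower without WT library 1, and 1208 and 871 without WT library 2. In these bulk RNA samples fewer cells of a type and less RNA per cell cannot be told apart.

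The largest rises were of genes that WT cells barely transcribed. Tg, which encodes thyroglobulin, the thyroid hormone precursor (chromosome 15, 66670593 to 66850720), was at 14.5 and 8.62 CPM in KO and had no fragment in WT. Set against 3 counts in each WT library, the limit that a count of 0 allows, its KO level was at least 59.3-fold higher. The antisense gene Sla inside it had at most 1 fragment in any library. Tgm7, a transglutaminase gene (chromosome 2, 121093515 to 121113406), was at 12.2 and 9.14 CPM in KO and at 0.125 and 0 CPM in WT. That is 342 fragments against 2, a ratio of 163 with a 95% exact counting interval of 44.7 to 1348. Floors and counting intervals cover counting error only.

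Gad1, which encodes a glutamate decarboxylase that makes the transmitter GABA (chromosome 2, 70562164 to 70602012, plus strand), was at 86.3 and 84.9 CPM in KO, against 3.49 and 3.65 CPM in WT (log2 fold change 4.58, SE 0.17, adjusted p = 3.28e-05). It had the highest KO level of the 12 genes with the largest rises, and the libraries within a genotype were close. Its antisense neighbour Gad1os had at most 4 fragments in any library. No other gene of the GABAergic list passed the test: Gad2 was at 0.332 and 0.402 CPM in KO and 0.498 and 1.22 CPM in WT, and Slc32a1, the vesicular GABA transporter, had no fragment in KO and at most 0.203 CPM in WT. Dlx1 and Dlx2, transcription factors of GABAergic precursors, were at 0.399 to 1.72 CPM in KO and 0.810 to 2.3 CPM in WT and were not called. In all, 1 of the 5 tested members rose and none fell.

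Cacna1g, a T-type calcium channel gene (chromosome 11, 94408391 to 94474198), was at 67.0 and 35.7 CPM in KO, against 4.80 and 2.91 CPM in WT (3.73, SE 0.36, adjusted p = 0.00054). Cdc42ep3, whose protein binds the small GTPase Cdc42, was at 26.4 and 18.5 CPM in KO, against 0.748 and 1.35 CPM in WT (4.42, adjusted p = 0.000247). The uncharacterised transcript 2810049E08Rik was at 35.4 and 29.7 CPM in KO, against 2.68 and 1.35 CPM in WT (adjusted p = 0.000221). The remaining 6 genes had lower levels in KO. They were the zinc finger gene Zfp819 (4.73), the inositol phosphate kinase gene Ip6k3 (4.23), the collagen gene Col20a1 (4.19), the calpain family gene Capn6 (3.65), Scrg1 (3.62) and the aldo-keto reductase gene Akr1c13 (3.52). None of them was above 17.1 CPM in KO or 1.99 CPM in WT. Zfp819 and Akr1c13 belong to families of like sequence, between which the authors' counting could split fragments. The call of Scrg1 was lost without KO library 1 (adjusted p = 0.065), without KO library 2 (0.0578) and with limma on log2(FPKM + 0.1) (0.18). The other 11 calls held under each alternative tried. Of the 24 genes with the largest rises or falls, 4 that rose passed the low-count filter through the KO libraries alone and 5 that fell through the WT libraries alone, so these had to differ.

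The largest falls took genes expressed in WT close to 0. Fam135b (chromosome 15, 71439972 to 71728061) was at 0.332 and 0.517 CPM in KO, against 31.3 and 43.0 CPM in WT (−6.41, SE 0.32, adjusted p = 0.000109). Otx2, a homeobox factor of the forebrain and midbrain (chromosome 14, 48657677 to 48667644), was at 0.332 and 0.115 CPM in KO, against 11.3 and 7.17 CPM in WT (−5.37, SE 0.51, adjusted p = 0.00054). En2, a homeobox factor of the midbrain and hindbrain border, was at 0.133 and 0.287 CPM in KO, against 4.86 and 6.16 CPM in WT (−4.63, adjusted p = 0.00075). Both homeobox genes were thus near the detection floor in KO and at a few CPM in WT. Six3os1, the transcript opposite the forebrain homeobox gene Six3, was at 1.79 and 2.24 CPM in KO, against 83.3 and 43.0 CPM in WT (−4.96). Its call was lost without KO library 1 (adjusted p = 0.153) and without KO library 2 (0.15). The sources used here do not say whether fragments were counted by strand.

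Anxa3, an annexin gene (chromosome 5, 96793385 to 96845968), was at 1.40 and 2.70 CPM in KO, against 63.8 and 61.4 CPM in WT (−4.91, adjusted p = 0.000122). Thbd, which encodes thrombomodulin, was at 0.133 and 0.977 CPM in KO, against 20.1 and 16.2 CPM in WT (−4.96). Col18a1, a basement membrane collagen gene, was at 1.53 and 1.32 CPM in KO, against 28.4 and 49.4 CPM in WT (−4.77). The genotypes were far apart for each of these 3 genes. Rcan2, a regulator of the phosphatase calcineurin (chromosome 17, 43801851 to 44039516), was at 0.930 and 1.67 CPM in KO, against 33.3 and 34.8 CPM in WT (−4.68). Pcp4l1 was at 0.598 and 0.287 CPM in KO, against 15.5 and 12.7 CPM in WT (−5.00). Cped1 and AI593442 had log2 fold changes of −4.88 and −4.87 and are described with their promoters. Fosb, an immediate early gene, was at 2.99 and 2.70 CPM in KO, against 102 and 37.1 CPM in WT (−4.61, adjusted p = 0.000761), so its WT libraries differed widely. The call of Fosb was lost without KO library 1 (adjusted p = 0.297), without KO library 2 (0.303), with no low-count filter (0.0651) and with limma on log2(FPKM + 1) (0.0828). The call of AI593442 was likewise lost without KO library 1 (0.134) or KO library 2 (0.159).

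**Figure D1:**
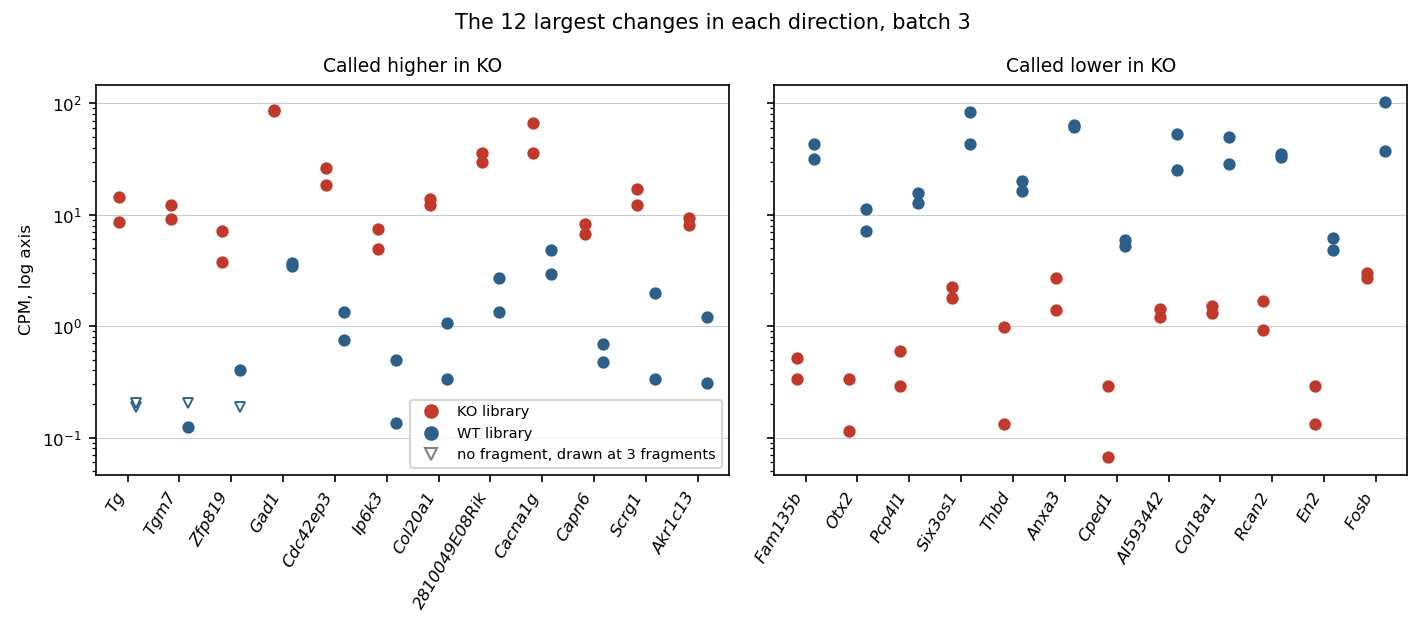
CPM on a log scale in each library for the 12 genes with the largest rises and the 12 with the largest falls, KO libraries beside WT libraries. Gad1 sits at 86.3 and 84.9 CPM in KO, against 3.49 and 3.65 CPM in WT, and Fam135b at 0.332 and 0.517 CPM in KO, against 31.3 and 43.0 CPM in WT.

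Promoters of 4 genes that fell are shown because histone peaks differed between the KO and WT lines over the printed window or beside it. Each window runs from 250 bases before to 50 bases after the start that RefSeq annotates on build GRCm38.p6, on the strand of the gene, and capitals mark CG, the dinucleotide that DNA methyltransferases methylate and that CpG islands are rich in. Among 32851 such windows 94.6% held at least 1 CG, with a median of 7, and the 4 shown held 12, 13, 12 and 16 in the order given.
AI593442: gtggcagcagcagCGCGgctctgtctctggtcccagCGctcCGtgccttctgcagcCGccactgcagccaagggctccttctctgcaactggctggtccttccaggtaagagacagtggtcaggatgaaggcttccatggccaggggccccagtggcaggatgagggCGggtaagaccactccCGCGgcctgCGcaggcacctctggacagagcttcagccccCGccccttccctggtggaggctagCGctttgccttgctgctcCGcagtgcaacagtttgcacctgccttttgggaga
Gpx3: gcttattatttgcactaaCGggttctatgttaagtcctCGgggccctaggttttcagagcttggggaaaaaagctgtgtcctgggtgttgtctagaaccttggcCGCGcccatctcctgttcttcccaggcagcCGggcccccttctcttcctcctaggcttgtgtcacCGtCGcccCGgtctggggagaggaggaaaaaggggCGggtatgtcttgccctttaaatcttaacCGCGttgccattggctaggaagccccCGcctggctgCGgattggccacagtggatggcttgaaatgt
Cped1: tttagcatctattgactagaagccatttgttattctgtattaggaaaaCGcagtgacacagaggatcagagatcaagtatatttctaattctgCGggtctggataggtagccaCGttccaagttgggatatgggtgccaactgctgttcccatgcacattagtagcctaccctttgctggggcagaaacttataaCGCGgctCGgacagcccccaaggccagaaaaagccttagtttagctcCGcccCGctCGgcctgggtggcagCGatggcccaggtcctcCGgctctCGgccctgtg
Otx2: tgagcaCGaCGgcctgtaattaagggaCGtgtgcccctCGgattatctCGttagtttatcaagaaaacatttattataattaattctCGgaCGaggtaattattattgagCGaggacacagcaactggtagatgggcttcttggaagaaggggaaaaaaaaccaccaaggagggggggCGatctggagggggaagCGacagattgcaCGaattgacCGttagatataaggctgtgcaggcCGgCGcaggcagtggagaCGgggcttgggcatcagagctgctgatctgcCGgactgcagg

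The AI593442 window (chr9:52679388-52679687, minus strand) had an H3K27ac peak in neither KO line, against peaks of 4.18-fold and 6.14-fold enrichment over input in WT lines 532 and 541. Over the same window H3K27me3 peaks of 7.08-fold and 9.12-fold were called in KO lines 530 and 534 and none in WT. Its RNA was at 1.20 and 1.44 CPM in KO, against 25.3 and 52.7 CPM in WT. The Otx2 window (chr14:48665060-48665359, minus strand) had no H3K27ac peak in KO, against 5.22-fold and 3.84-fold peaks in WT, while H3K27me3 peaks of 16.7-fold and 15.0-fold in KO and 12.7-fold and 14.7-fold in WT lay over it in every line. Both promoters thus lacked an acetylation peak in the KO lines. The peak enrichments are the authors' own values, each from 1 line against its input.

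The Gpx3 window (chr11:54902604-54902903, plus strand; Gpx3 encodes a secreted glutathione peroxidase) had no H3K27ac peak in KO, against 1 of 3.02-fold in WT line 541, and H3K27me3 peaks of 3.07-fold and 3.24-fold in KO and none in WT. Gpx3 RNA was at 2.13 and 3.45 CPM in KO, against 7.16 and 6.70 CPM in WT (−1.30, SE 0.32, adjusted p = 0.0178). The Cped1 window (chr6:21985660-21985959, plus strand) was acetylated in all lines, with peaks of 3.20-fold and 3.97-fold in KO and 3.63-fold and 4.54-fold in WT. An H3K27me3 peak of 2.85-fold lay over it in KO line 534, and none in WT. Cped1 RNA was at 0.0665 and 0.287 CPM in KO, against 5.98 and 5.28 CPM in WT (−4.88, SE 0.53, adjusted p = 0.000819). A fall of RNA thus accompanied a promoter that kept its acetylation peaks as well as promoters that did not.

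The next comparisons ask which groups of genes moved, by lists of known function. The lists hold 456 distinct tested genes, of which 70 were called higher and 123 lower. Adjusted p-values are over all 12834 genes, and each share can be set beside 17.3% of all tested genes called higher and 14.5% called lower. The bar chart of list members gives the shares of each list. Among called members, Esam, Hey2, Mog, S100b and Wnt3 passed the low-count filter through the KO libraries alone. Ifih1, L1cam, Lef1, Otx2 and Tbr1 passed it through the WT libraries alone. These genes had to differ, so their calls are no test. Genes are named by a rule of size within each list, and the few named outside it, such as the progenitor markers, were chosen with their values known.

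**Figure D2:**
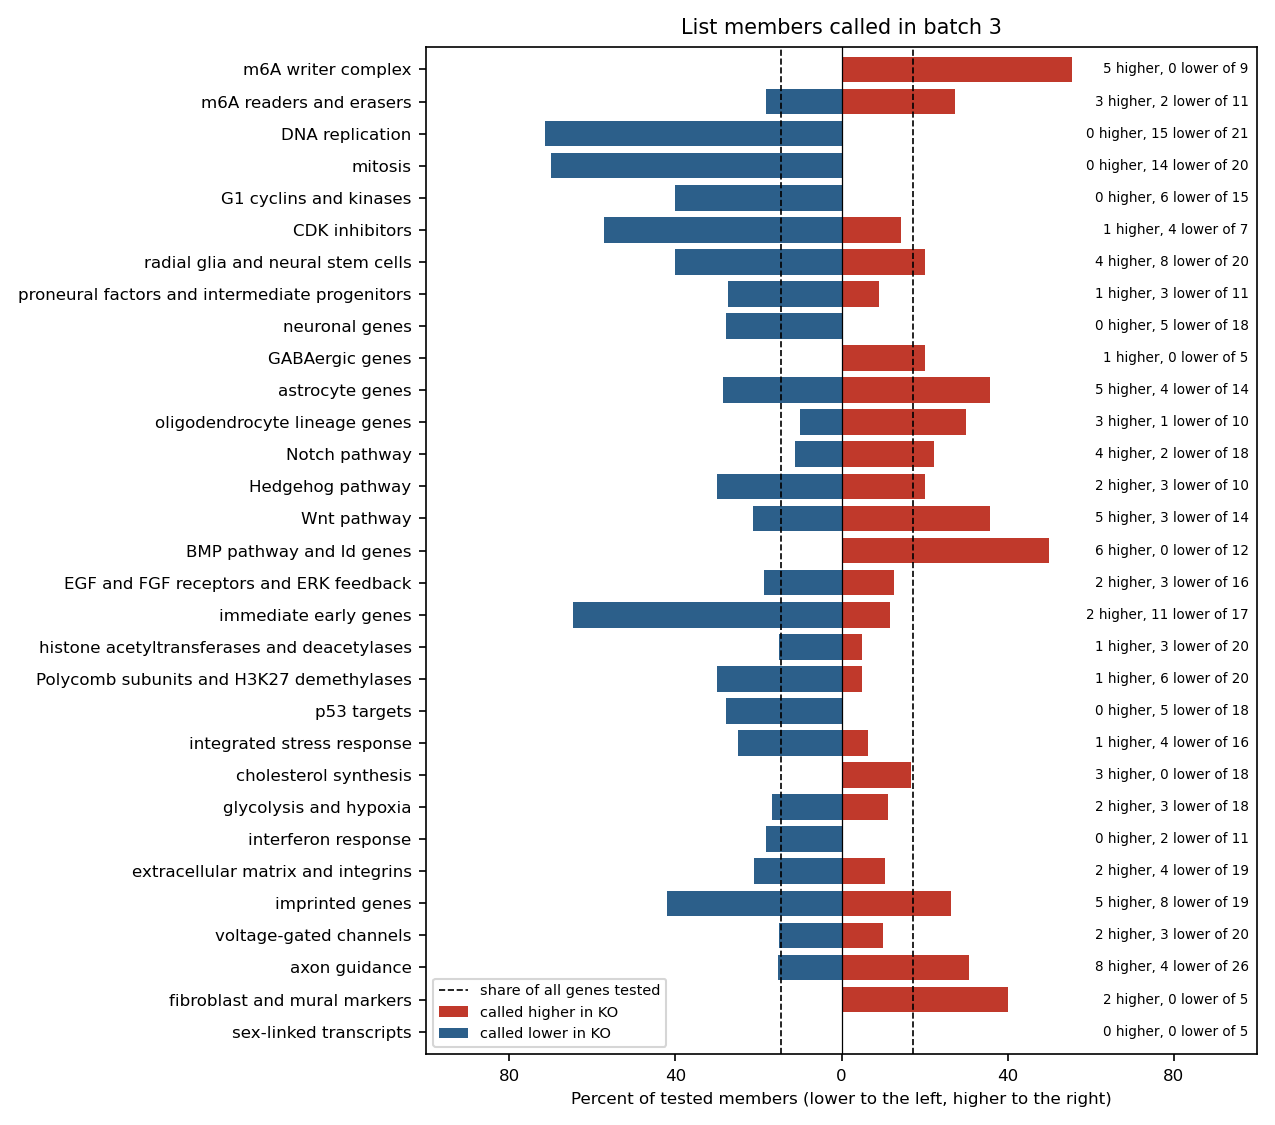
Percent of the tested members of each gene list called lower in KO (to the left, blue) or higher in KO (to the right, red), for lists with at least 5 tested members, with the counts at the right. Dashed lines mark the shares of all genes tested, 14.5% lower and 17.3% higher; DNA replication (15 of 21 lower) and mitosis (14 of 20 lower) lie furthest to the left.

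The m6A machinery was the first group. Of 9 tested genes of the writer complex 5 rose and none fell, with a median of 0.40. Rbm15 and Rbm15b, which bring the complex to RNA, rose most. Rbm15 was at 84.5 and 78.1 CPM in KO, against 39.1 and 44.3 CPM in WT (0.96, SE 0.14, adjusted p = 0.0024). Rbm15b was at 217 and 198 CPM in KO, against 108 and 115 CPM in WT (0.90, adjusted p = 0.00214). The ubiquitin ligase subunit Cbll1 (0.65), 1110037F02Rik, the mouse locus of the scaffold Virma (0.44), and Zc3h13 (0.40) rose less. Mettl3, the catalytic subunit, was at 26 and 34.9 CPM in KO, against 41.6 and 37.6 CPM in WT, and was not called (adjusted p = 0.153). Without WT library 1 or WT library 2 the count of 5 became 2, as it did with limma on FPKM. Summed over the list the level was 956 and 910 CPM in KO, against 678 and 689 CPM in WT.

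Among readers and erasers 3 of 11 rose and 2 fell (median 0.19), with 4 falls without KO library 1 and 5 rises without KO library 2. The YTH readers of the cytoplasm Ythdf1 and Ythdf2 rose together. Ythdf2, which directs marked RNA to decay, was at 293 and 275 CPM in KO, against 109 and 118 CPM in WT (1.32, SE 0.13, adjusted p = 0.000602). Ythdf1 was at 226 and 242 CPM in KO, against 102 and 107 CPM in WT (1.16, SE 0.13, adjusted p = 0.000843). The nuclear reader Ythdc1 was at 220 and 243 CPM in KO, against 140 and 143 CPM in WT (0.71), a call lost without WT library 1 (adjusted p = 0.0661) and WT library 2 (0.0558). Igf2bp1, a fetal RNA-binding protein that stabilises target RNAs, was at 5.58 and 7.30 CPM in KO, against 32.9 and 37.5 CPM in WT (−2.44, SE 0.21, adjusted p = 0.000347). Its relative Igf2bp2 fell by 0.49, a call lost without either WT library (adjusted p = 0.21 and 0.244). The erasers Fto and Alkbh5 were not called (adjusted p = 0.267 and 0.312).

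The cell cycle lists fell. Of 21 tested DNA replication genes 15 fell and none rose, with a median of −0.62, and of 20 tested mitosis genes 14 fell and none rose, with a median of −0.54. The falls were moderate, from −0.50 to −1.07 for replication and from −0.48 to −1.05 for mitosis. Mcm6, a subunit of the replicative helicase, was at 154 and 189 CPM in KO, against 285 and 298 CPM in WT (−0.76, SE 0.15, adjusted p = 0.0064). Pola1, the catalytic subunit of the primase-coupled polymerase, was at 65.5 and 65.2 CPM in KO, against 120 and 135 CPM in WT (−0.96). Rfc4, of the clamp loader, fell by 1.07 and Orc1, of the origin recognition complex, by 0.80 on the log2 scale.

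Among mitosis genes Hmmr, a spindle protein gene, was at 107 and 88.8 CPM in KO, against 207 and 198 CPM in WT (−1.05, SE 0.14, adjusted p = 0.00157). Top2a, which untangles sister chromatids, was at 596 and 553 CPM in KO, against 999 and 1021 CPM in WT (−0.81). The spindle motor gene Kif11 fell by 0.80 and Cdc20, the activator of anaphase, by 0.74. Mki67, a widely used proliferation marker, was at 991 and 653 CPM in KO, against 975 and 1121 CPM in WT and was not called (adjusted p = 0.256). These counts depended on the WT libraries: the 15 replication calls became 9 without WT library 1 and 3 without WT library 2, and the 14 mitosis calls became 2 and 4. Without KO library 2 both counts went up, and without KO library 1 the mitosis count did. With limma on log2(FPKM + 1) the counts were 9 and 6. The calls of Orc1 without WT library 2 (adjusted p = 0.22), Kif11 without WT library 1 (0.077) and Top2a without WT library 1 (0.0578) or WT library 2 (0.0847) were among those lost. Orc1 was also lost without KO library 1 (0.071).

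Upstream of S phase, 6 of 15 G1 genes fell and none rose (median −0.26). Ccnd1, the cyclin that starts G1 progression, was at 547 and 697 CPM in KO, against 1855 and 2396 CPM in WT (−1.77, SE 0.21, adjusted p = 0.000985). Ccnd2, its relative, was at 1185 and 1150 CPM in KO, against 1529 and 1896 CPM in WT (−0.55, adjusted p = 0.0444), a call lost without WT library 1 (0.157) or WT library 2 (0.534). The third D cyclin Ccnd3 and the partner kinases Cdk4 and Cdk6 were not called (adjusted p = 0.887, 0.726 and 0.0531). Ccne2, the cyclin of S phase entry, fell by 1.07 (adjusted p = 0.0633 without WT library 2), the transcription factor E2f2 by 0.92 (0.082 without WT library 2), and Rbl1, an Rb relative, by 0.86. Without WT library 2 the list count was 3.

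Inhibitors of the cyclin kinases were lower as well: 4 of 7 fell and 1 rose, with a median of −0.92. Cdkn1a, which encodes p21 and is a p53 target, was at 135 and 182 CPM in KO, against 303 and 297 CPM in WT (−0.92, SE 0.16, adjusted p = 0.00481). Cdkn2a was at 4.92 and 5.81 CPM in KO, against 17.9 and 17.3 CPM in WT (−1.71, adjusted p = 0.00124), and its neighbour Cdkn2b at 1.59 and 2.41 CPM in KO, against 8.72 and 5.82 CPM in WT (−1.85). The imprinted inhibitor Cdkn1c was at 6.51 and 5.29 CPM in KO, against 20.4 and 9.68 CPM in WT (−1.36), a call lost without KO library 1 (adjusted p = 0.135), KO library 2 (0.243) or WT library 1 (0.228). Cdkn2d was at 45.1 and 56.8 CPM in KO, against 32.7 and 30.8 CPM in WT (0.68, adjusted p = 0.0172), a call lost without WT library 1 (0.0736) or WT library 2 (0.129). Cdkn1b, which encodes p27, was not called (adjusted p = 0.703). Among p53 targets 5 of 18 fell, or 3 without WT library 2, and none rose (median −0.17), with Trp53 itself at 64.0 and 76.9 CPM in KO, against 107 and 119 CPM in WT (−0.68; adjusted p = 0.00929, and 0.0914 without WT library 2).

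**Figure D3:**
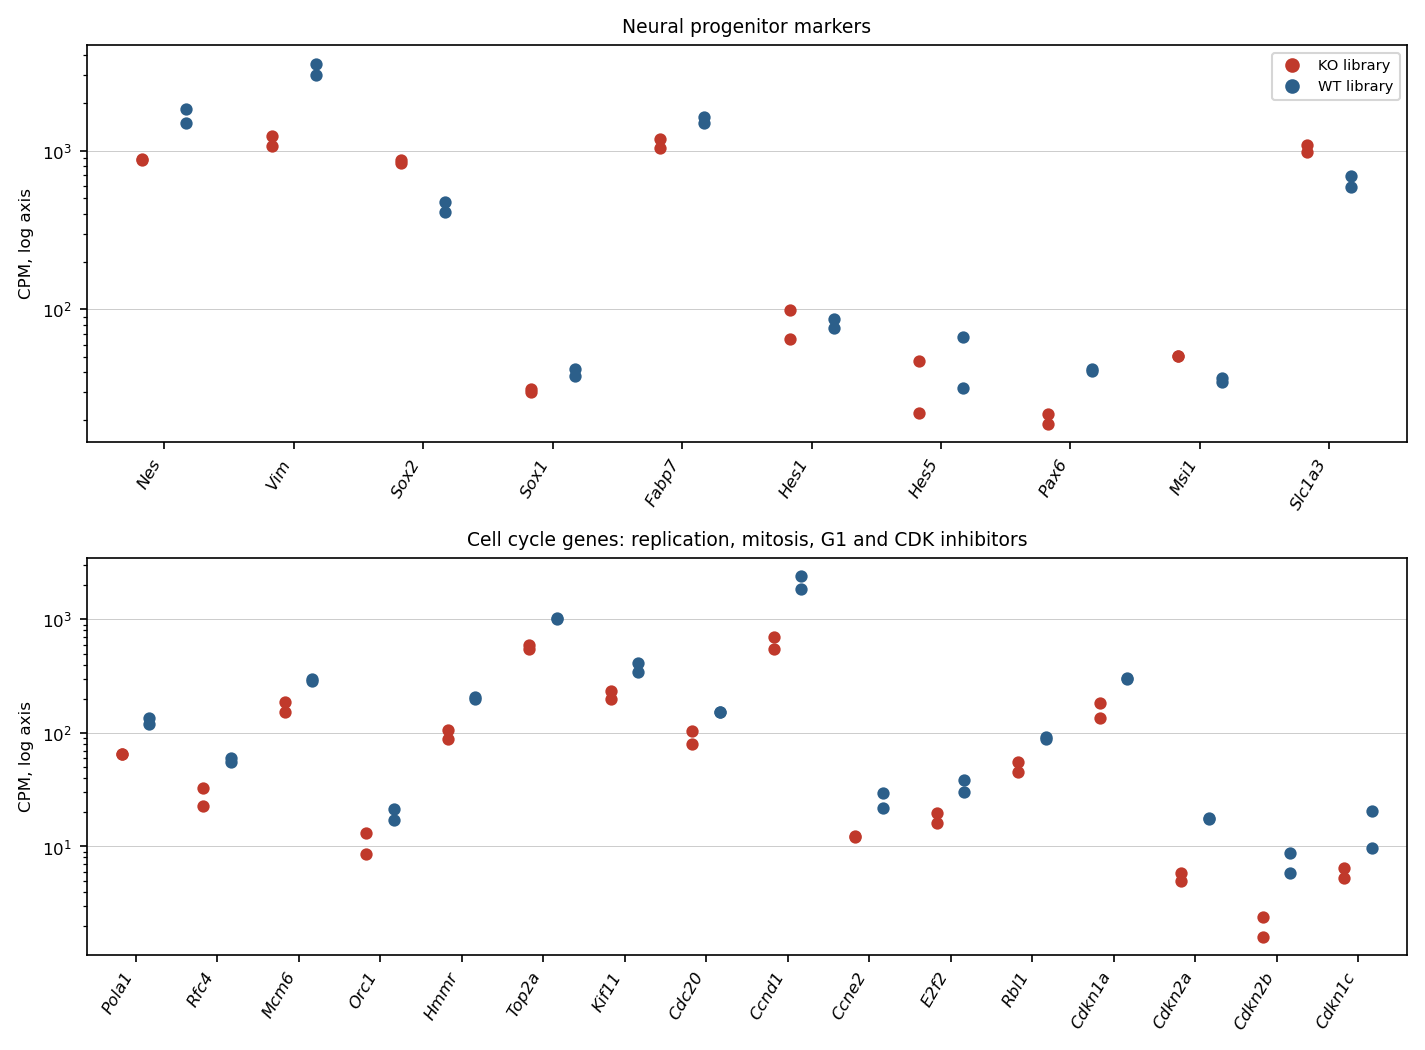
CPM on a log scale in each library for the neural progenitor markers and for cell cycle genes, KO libraries beside WT libraries. Sox2 lies higher in KO (843 and 868 CPM, against 474 and 410 CPM in WT), whereas Vim (1071 and 1241, against 2987 and 3547 CPM in WT) and Ccnd1 (547 and 697, against 1855 and 2396 CPM in WT) lie lower.

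Radial glia and neural stem cell genes split: of 20 tested, 4 rose and 8 fell (median −0.43). Of the 10 progenitor markers 3 rose, 3 fell and 4 were not called. Sox2 rose (0.95, SE 0.16, adjusted p = 0.00378), as did Slc1a3, the glial glutamate transporter (1090 and 979 CPM in KO, against 696 and 594 CPM in WT; 0.68, adjusted p = 0.0177), and the RNA-binding protein gene Msi1 (0.50, adjusted p = 0.0322). Leaving out WT library 2 left no rise in the list and ended the calls of Sox2 (adjusted p = 0.0856), Slc1a3 (0.312) and Msi1 (0.323). Without WT library 1, Slc1a3 (0.104) and Msi1 (0.213) were lost.

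Vim fell (−1.50, SE 0.18, adjusted p = 0.00114) and so did Nes (−0.92, adjusted p = 0.00609, and 0.128 without WT library 2). Pax6, a homeobox factor of cortical radial glia, was at 21.8 and 18.9 CPM in KO, against 42.1 and 40.9 CPM in WT (−1.03, SE 0.16, adjusted p = 0.00276). The Notch target genes Hes1 and Hes5 and the markers Sox1 and Fabp7 were not called (adjusted p = 0.972, 0.367, 0.0969 and 0.0556). Tnc, the matrix protein of radial glia, had the largest fall of the list, at 331 and 334 CPM in KO, against 1662 and 1866 CPM in WT (−2.41, SE 0.17, adjusted p = 0.000205). Prom1, a stem cell surface protein gene, was at 7.84 and 5.63 CPM in KO, against 31.9 and 22.4 CPM in WT (−2.01), and Nr2e1, a nuclear receptor of neural stem cells, at 12.5 and 9.31 CPM in KO, against 47.3 and 39.5 CPM in WT (−2.00). Summed over the list the level was 7628 and 7420 CPM in KO, against 12577 and 13047 CPM in WT.

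Genes listed for neurons, astrocytes and the oligodendrocyte lineage ranged from low to high levels. The neuronal list summed to 1753 and 1534 CPM in KO, against 1662 and 1931 CPM in WT. The astrocyte list summed to 1522 and 1505 CPM in KO, against 1130 and 967 CPM in WT. For the oligodendrocyte lineage the sums were 2885 and 3169 CPM in KO, against 2331 and 2410 CPM in WT. Most of this sum was Olig1 in every library. Among neuronal genes 5 of 18 fell and none rose (median −0.91), with 8 falls without either KO library and 3 rises without KO library 2. Ina, a neuronal filament gene, was at 1.33 and 1.90 CPM in KO, against 4.55 and 8.12 CPM in WT (−1.96, adjusted p = 0.0085). Tubb3, the neuronal tubulin, was at 2.13 and 3.45 CPM in KO, against 3.80 and 6.29 CPM in WT, and was not called (adjusted p = 0.13). Of 11 tested proneural and intermediate progenitor genes 1 rose and 3 fell, and without KO library 2 the rises numbered 3. The Notch ligand gene Dll3 was at 4.98 and 4.37 CPM in KO, against 24.9 and 12.8 CPM in WT (−2.01), a call lost without KO library 2 (adjusted p = 0.0853). Insm1, a factor of intermediate progenitors, fell by 0.90 (adjusted p = 0.0161, and 0.151 without WT library 2).

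Astrocyte genes moved both ways, 5 of 14 higher and 4 lower. Apoe, the lipid carrier made by glia, was at 298 and 259 CPM in KO, against 47.6 and 22.3 CPM in WT (2.99, SE 0.31, adjusted p = 0.000709). Its call was lost without KO library 1 (adjusted p = 0.218) or KO library 2 (0.214). Slc1a2, the main glutamate transporter of astrocytes, was at 203 and 115 CPM in KO, against 43.7 and 42.4 CPM in WT (1.89, SE 0.24, adjusted p = 0.00133). Glul, glutamine synthetase, was at 442 and 505 CPM in KO, against 200 and 206 CPM in WT (1.22, adjusted p = 0.000996). The protease inhibitor gene Serpina3n rose by 2.63.

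On the falling side of the astrocyte list, Aldh1l1, an enzyme gene of folate metabolism, was at 38.3 and 32.7 CPM in KO, against 145 and 115 CPM in WT (−1.88, adjusted p = 0.000397), and the aldolase gene Aldoc at 37.3 and 35.7 CPM in KO, against 91.4 and 83.1 CPM in WT (−1.26). Fgfr3, a growth factor receptor gene, was at 19.8 and 15.1 CPM in KO, against 127 and 47.1 CPM in WT (−2.32). The call of Fgfr3 was lost without KO library 1 (adjusted p = 0.401), without KO library 2 (0.444) and with no low-count filter (0.182). Gfap, the defining filament of mature astrocytes, was at 2.26 and 0.517 CPM in KO, against 0.561 and 0.203 CPM in WT, below the filter. In the oligodendrocyte lineage 3 of 10 rose and 1 fell, but the list held 0 rises and 4 falls without WT library 2, 2 and 2 with DESeq2 and 1 and 2 with limma on log2(FPKM + 0.1). Olig1 was at 1878 and 2196 CPM in KO, against 1197 and 1314 CPM in WT (0.70; adjusted p = 0.0178, 0.257 without WT library 1 and 0.189 without WT library 2). Cspg4, the NG2 proteoglycan of oligodendrocyte precursors, was at 67.7 and 45.5 CPM in KO, against 203 and 135 CPM in WT (−1.58), a call lost without KO library 1 (0.0953) or KO library 2 (0.177).

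Signalling genes are given by pathway. In the Hedgehog pathway 2 of 10 rose, or 1 without either WT library, and 3 fell. The ligand gene Dhh (chromosome 15, 98891153 to 98898540) had the largest difference, at 1.40 and 2.36 CPM in KO, against 39.0 and 31.9 CPM in WT (−4.22, SE 0.28, adjusted p = 0.000147). The receptor gene Ptch1 was not called (adjusted p = 0.842), the co-receptor gene Cdon fell by 1.46, the pathway's antagonist Hhip by 1.66, and the effector Gli2 rose to 31.6 and 24.5 CPM in KO, against 6.98 and 11.4 CPM in WT (1.61). In the Wnt pathway 5 of 14 rose and 3 fell, with 2 rises without KO library 1 or WT library 1 and 3 without KO library 2. Nkd1, a feedback inhibitor, was at 153 and 127 CPM in KO, against 32.8 and 26.1 CPM in WT (2.25, SE 0.17, adjusted p = 0.00022). Sfrp2, a secreted antagonist, was at 4.72 and 5.52 CPM in KO, against 32.8 and 22.1 CPM in WT (−2.42), and the effector Lef1 at 0.199 and 0.46 CPM in KO, against 2.43 and 4.47 CPM in WT (−3.32). Lef1 passed the low-count filter through the WT libraries alone, and Wnt3, among the rises, through the KO libraries alone. Axin2, a target gene of the pathway, was not called (adjusted p = 0.153).

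Of 12 tested BMP pathway and Id genes 6 rose and none fell (median 0.64), and without either WT library 2 of them were called. The inhibitory Smad gene Smad7 was at 9.37 and 7.42 CPM in KO, against 1.81 and 0.609 CPM in WT (2.77, SE 0.45, adjusted p = 0.00328). The receptor gene Bmpr2 was at 753 and 514 CPM in KO, against 370 and 345 CPM in WT (0.82; adjusted p = 0.0552 without WT library 1 and 0.101 without WT library 2). Id2, an inhibitor of helix-loop-helix factors, was at 86.1 and 75.9 CPM in KO, against 44.2 and 50.1 CPM in WT (0.78; 0.0748 without WT library 1), while Id1 and Id3 were not called. The ligand gene Bmp4 had no fragment in any library. In the Notch pathway 4 of 18 rose and 2 fell, and without WT library 2 the order turned to 2 rises and 4 falls. The target genes Hey2 (2.79 and 1.61 CPM in KO, against 0.498 and 0.203 CPM in WT; 2.60) and Hey1 (47.8 and 38.9 CPM in KO, against 30.5 and 18.6 CPM in WT; 0.82) rose, and the receptor gene Notch1 was not called. The call of Hey1 was lost without KO library 1 (adjusted p = 0.212), KO library 2 (0.146) or WT library 2 (0.26). Hey2 and the ligand gene Dll4, which was not called, passed the low-count filter through the KO libraries alone.

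Immediate early genes, which respond within minutes to growth factors and calcium, were lower: 11 of 17 fell and 2 rose, with a median of −1.13. Fos was at 84.3 and 60.01 CPM in KO, against 342 and 179 CPM in WT (−1.85, SE 0.29, adjusted p = 0.00304). Ier2 was at 21.9 and 33.8 CPM in KO, against 122 and 82.4 CPM in WT (−1.87), and Ier3 at 4.92 and 10.1 CPM in KO, against 21.7 and 31.2 CPM in WT (−1.81). Summed over the list the level was 1301 and 1479 CPM in KO, against 2680 and 1897 CPM in WT, so WT library 1 was above WT library 2. The count of 11 became 4 without KO library 1, 6 without KO library 2, 7 without WT library 1 and 5 with no low-count filter. The call of Fos was lost without KO library 1 (adjusted p = 0.31), KO library 2 (0.384) and with no filter (0.0685), and that of Ier2 without KO library 1 (0.0778). Feedback genes of ERK signalling and growth factor receptors were mixed, with 2 of 16 higher and 3 lower, and 5 higher and 6 lower without KO library 2. Spry4, a feedback inhibitor, was at 172 and 230 CPM in KO, against 472 and 478 CPM in WT (−1.24, adjusted p = 0.00175), Fgfr2 at 41.9 and 36.2 CPM in KO, against 13.6 and 9.95 CPM in WT (1.73), and Egfr was not called (adjusted p = 0.19).

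Because H3K27 marks were mapped in the same lines, the enzymes that act on H3K27 were listed. Of 20 acetyltransferase and deacetylase genes 1 rose and 3 fell, against 1 and 6 without KO library 1 and 6 and 5 without KO library 2. The acetyltransferase genes Crebbp and Ep300 were not called, at 173 and 120 CPM in KO, against 107 and 117 CPM in WT for Crebbp, and at 202 and 137 CPM in KO, against 140 and 145 CPM in WT for Ep300. The deacetylase genes Hdac1 (−1.19), Hdac5 (−0.88) and Hdac9 (−1.75) fell and Hdac11 rose (1.66). Hdac1 was at 57.7 and 57.5 CPM in KO, against 125 and 139 CPM in WT (SE 0.13, adjusted p = 0.000797). Of 20 tested Polycomb subunit and H3K27 demethylase genes 1 rose and 6 fell (median −0.04), with 1 falling without WT library 1 and 2 without WT library 2. The rises numbered 4 without KO library 1 and 6 without KO library 2. Ezh2, the H3K27 methyltransferase, was at 115 and 129 CPM in KO, against 237 and 245 CPM in WT (−0.98, SE 0.13, adjusted p = 0.0016). Its partner Eed fell by 0.73 (adjusted p = 0.011, and 0.079 without WT library 1), while Suz12 and the demethylase genes Kdm6a and Kdm6b were not called.

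Imprinted genes, expressed from 1 parental copy, moved in both directions, 5 of 19 higher and 8 lower (median −0.57). The rises numbered 2 without either WT library, and the falls 5 without KO library 1, KO library 2 or WT library 1. Mest was at 93.2 and 169 CPM in KO, against 669 and 783 CPM in WT (−2.47, SE 0.27, adjusted p = 0.000828). Grb10, an adaptor that restrains growth factor receptors, was at 94.6 and 109 CPM in KO, against 454 and 434 CPM in WT (−2.12, adjusted p = 0.000177), and the zinc finger gene Plagl1 at 2.92 and 3.68 CPM in KO, against 13.3 and 15.0 CPM in WT (−2.09). Peg10 was at 863 and 993 CPM in KO, against 463 and 571 CPM in WT (0.84, adjusted p = 0.00916, and 0.164 without WT library 1). Axon guidance genes were called higher in 8 of 26, or 12 without KO library 2, and lower in 4. The receptor gene Nrp2 was at 89.7 and 68.7 CPM in KO, against 19.1 and 27.2 CPM in WT (1.78, adjusted p = 0.00106), and Sema6a, a membrane semaphorin, at 327 and 266 CPM in KO, against 99.2 and 98.3 CPM in WT (1.59, adjusted p = 0.000504). Of 20 voltage-gated channel genes 2 rose and 3 fell, and 4 and 4 without KO library 2. Kcna2, a potassium channel gene, was at 79.3 and 55.1 CPM in KO, against 362 and 406 CPM in WT (−2.51, SE 0.19, adjusted p = 0.000234).

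Metabolic and stress lists were called at shares near or below the 31.8% of all genes. Of 18 cholesterol synthesis genes 3 rose (Fdft1, Mvk and Msmo1, by 0.55 to 0.64) and none fell, with 0 called without either WT library or with limma on FPKM and 7 higher without KO library 1. Of 18 glycolysis and hypoxia genes 2 rose and 3 fell, and without KO library 2 the falls numbered 10, without KO library 1 the rises 5 and without WT library 2 the rises 0. The list summed to 3104 and 4529 CPM in KO, against 5163 and 4985 CPM in WT, with KO library 1 the lowest. Eno1, the enolase, was at 276 and 398 CPM in KO, against 649 and 669 CPM in WT (−0.97, adjusted p = 0.00825). In the integrated stress response 1 of 16 rose and 4 fell (3 rises without KO library 1, 6 falls without KO library 2 and 1 fall without WT library 2), with Asns, asparagine synthetase, at 35.9 and 59.4 CPM in KO, against 99.0 and 86.6 CPM in WT (−0.96, adjusted p = 0.0142). Of 11 interferon response genes 2 fell (0 without WT library 2), the RNA sensor genes Ifih1 and Ddx58, at 0.46 to 7.31 CPM in KO and 1.31 to 12.6 CPM in WT. The call of Ddx58 was lost without WT library 1 (adjusted p = 0.191) or WT library 2 (0.0749), and Ifih1 was called under no setting that left out a library. Of 19 matrix and integrin genes 2 rose and 4 fell (5 and 6 without KO library 2), with Lamb1, a laminin chain, at 17.3 and 19.4 CPM in KO, against 57.7 and 44.3 CPM in WT (−1.47).

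Among markers of other cell types, the endothelial adhesion gene Esam rose to 3.85 and 4.77 CPM in KO, against 0.623 and 0.609 CPM in WT (2.79, adjusted p = 0.00199). Esam passed the low-count filter through the KO libraries alone. In the fibroblast and mural list, Acta2 rose to 1.79 and 7.30 CPM in KO, against 0.872 and 0.271 CPM in WT (2.97). Col3a1 of the same list rose to 2.26 and 2.24 CPM in KO, against 0.436 and 0.677 CPM in WT (2.01). Acta2 was not called without KO library 2 (adjusted p = 0.0832), nor Col3a1 without WT library 1 (0.0958). Esrrb, an orphan nuclear receptor of embryonic stem cells, was at 1.40 and 2.13 CPM in KO, against 17.9 and 30.8 CPM in WT (−3.77, SE 0.35, adjusted p = 0.000502). Otx2, which passed the filter through the WT libraries alone, was the called member of the choroid plexus list. The part of other cell types in these differences was not tested.

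The same culture lines have ChIP for H3K27ac and H3K27me3, which allows RNA differences to be set beside promoter marks. A promoter was taken as 1000 bases to each side of an annotated start, and a mark was called lost in KO where both WT lines and neither KO line had a peak there, and gained where the reverse held. H3K27ac peaks numbered 55633 and 63189 in KO lines 530 and 534, against 80947 and 55130 in WT lines 532 and 541. H3K27me3 peaks numbered 43186 and 59561 in KO and 58863 and 33188 in WT. The ranges of the genotypes overlapped for both marks, and the depth of these libraries is unknown. The lines are the same but the cultures that gave RNA and chromatin need not be, and the 2 KO and 2 WT lines are the error behind both measures.

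Genes with a promoter mark that differed had RNA medians away from 0, below it where H3K27ac was lost or H3K27me3 gained and above it where the reverse held. Of 256 genes with H3K27ac lost in KO, 86 passed the low-count filter, 3 through the KO libraries alone and 14 through the WT libraries alone. Among the 86, 45 were lower and 7 higher in KO (52.3% and 8.14%), with a median of −1.22. Of 106 genes with H3K27ac gained, 21 passed the filter, 6 through KO alone and 2 through WT alone, and 8 were higher and 3 lower (38.1% and 14.3%; median 1.15). That class held 5 and 1 without WT library 2 and with DESeq2, and no fall without KO library 2. Of 11457 tested genes acetylated in all lines 17.7% were higher and 13.9% lower (median 0.01). For H3K27me3 the signs turned. Of 239 genes with the mark gained, 161 passed the filter, 3 through KO alone and 6 through WT alone, and 76 were lower and 6 higher (47.2% and 3.73%; median −0.76). Of 164 genes with the mark lost, 67 passed, 6 through KO alone, and 28 were higher and 0 lower (41.8% and 0%; median 0.54). Genes that passed through 1 genotype alone had to differ, so these shares describe the genes and are no test. Without WT library 2 the class with H3K27me3 lost held 22 rises (without KO library 1 it held 2 falls), and the class with H3K27ac lost held 33 falls, or 30 without WT library 1. Among the 7 genes with H3K27ac lost that were in the upper part of all genes by mean CPM, split at the median, the sign of the median turned (0.43), against −1.41 in the lower part.

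**Figure D4:**
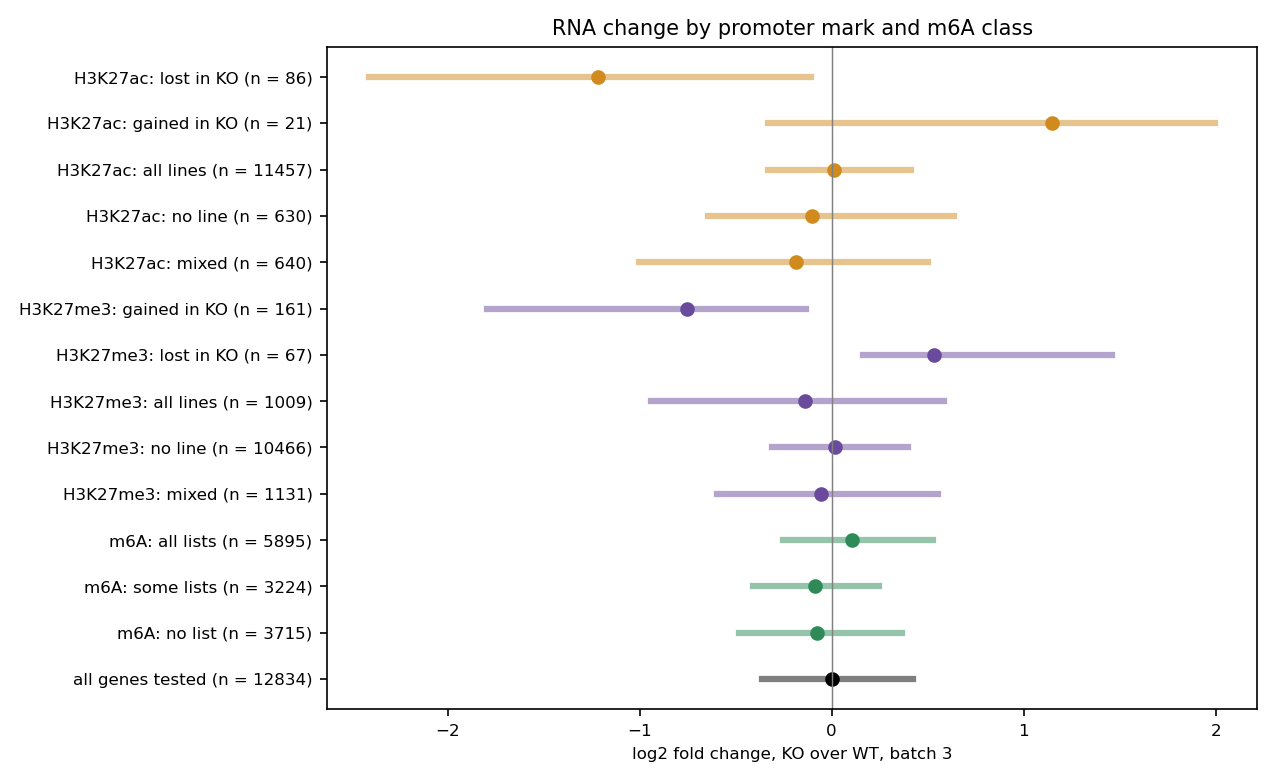
Median log2 fold change, KO over WT, with the quartiles as bars, of genes grouped by promoter H3K27ac, by promoter H3K27me3 and by m6A peaks in WT. The medians are −1.22 for H3K27ac lost, 1.15 for H3K27ac gained, −0.76 for H3K27me3 gained and 0.54 for H3K27me3 lost, and lie between −0.14 and 0.10 for genes with a mark in all lines, in none, or in any m6A class.

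The classes with a mark lost or gained covered few of the genes called, and few of all genes tested. Of 2221 genes higher in KO 91.5% had H3K27ac peaks in all lines and 81.9% had H3K27me3 in none. Of 1855 lower genes these shares were 85.8% and 73.5%. H3K27ac was lost at 2.43% of the lower genes and H3K27me3 gained at 4.10%. For comparison, of all 12834 genes tested 11457 had H3K27ac in all lines and 10466 had H3K27me3 in none. H3K27ac was lost at 86 of the 12834 and H3K27me3 gained at 161. Among the 24 genes with the largest rises or falls, the 12 that rose did so without a gain of H3K27ac at the promoter: Col20a1 was even in the class that lost it, with RNA at 13.9 and 12.2 CPM in KO, against 1.06 and 0.338 CPM in WT. Of the falls, Otx2, Pcp4l1, Six3os1, Anxa3 and AI593442 had lost H3K27ac, and Fam135b, Rcan2, Thbd, Cped1 and AI593442 had gained H3K27me3.

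Both marks differed at the promoters of 5 called genes. AI593442, Gpx3, Pla2g16 and Scn3b had lost H3K27ac and gained H3K27me3, and their RNA was lower. Pla2g16, a phospholipase gene, was at 1.33 and 0.460 CPM in KO, against 4.67 and 4.87 CPM in WT (−2.43, SE 0.48, adjusted p = 0.00722). Its promoter had no H3K27ac peak in KO, against 5.21-fold and 3.89-fold peaks in WT, and H3K27me3 peaks of 2.98-fold and 2.87-fold in KO and none in WT. Scn3b, a sodium channel subunit gene, was at 1.46 and 1.49 CPM in KO, against 4.92 and 6.36 CPM in WT (−1.92, SE 0.34, adjusted p = 0.00464). Sema6b, a membrane semaphorin gene, went the other way, with RNA at 10.1 and 9.20 CPM in KO, against 2.87 and 2.71 CPM in WT (1.79, SE 0.26, adjusted p = 0.00227). Its promoter had H3K27ac peaks of 4.13-fold and 3.74-fold in KO and none in WT, and H3K27me3 peaks in neither KO line, against 2.85-fold and 3.51-fold in WT.

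Other genes of these classes were further from 0. Gpr98, a large adhesion receptor gene with H3K27me3 gained, was at 0.997 and 0.345 CPM in KO, against 12.9 and 14.7 CPM in WT (−4.38, SE 0.41, adjusted p = 0.000504). Where H3K27me3 was lost, Lingo1, a neuronal receptor subunit gene, was at 101 and 79.4 CPM in KO, against 19.1 and 20.5 CPM in WT (2.19, SE 0.17, adjusted p = 0.000259), and Tshz3, a zinc finger homeobox gene, at 40.7 and 28.1 CPM in KO, against 7.41 and 9.27 CPM in WT (2.04). Nkd1, described with the Wnt pathway, was in the same class, and Dhh had lost H3K27ac. Where H3K27ac was gained, Lrrtm4, a synaptic adhesion gene, was at 17.5 and 12.2 CPM in KO, against 2.43 and 3.11 CPM in WT (2.42). An exception was 2900026A02Rik, which had gained H3K27ac and was at 10.8 and 12.5 CPM in KO, against 30.2 and 49.7 CPM in WT (−1.77). Its call was lost without either KO library.

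m6A was mapped in WT cultures whose lines the labels do not name, in 4 peak lists that each set 1 immunoprecipitate against 1 input. The series holds 2 immunoprecipitates and 2 inputs, so the 4 lists are not independent of each other. Transcripts with an m6A peak in all 4 lists held a larger share of genes called higher in KO than those without; the shares were not tested against each other. Of 5895 such genes 24.5% were higher and 12.8% lower, with a median of 0.10. Of 3715 genes with a peak in no list 11.7% were higher and 15.0% lower (median −0.08), and of 3224 with a peak in some lists 10.5% and 16.9% (median −0.09). Peaks were also counted exon by exon and averaged over the 4 lists, so a peak over more than 1 exon was counted more than once. The share called higher went up with this mean count. It was 11.7% at no peak, 13.4% up to 1, 22.2% from 1 to 2, 27.9% from 2 to 4 and 30.5% above 4. The median exon length went up as well, with 2662 bases at no peak and 7767 above 4, and genes with peaks in all lists were more abundant, with a median of 51.7 CPM in KO and 45.7 CPM in WT, against 11.1 CPM in KO and 10.6 CPM in WT for genes with none. Of the 2221 genes higher in KO 65.1% had a peak in all lists, as did 40.5% of the 1855 lower ones. For comparison, 5895 of all 12834 genes tested had a peak in all lists.

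Tg, Tgm7, Gad1, Cacna1g, Fam135b and Anxa3 had an m6A peak in no list, while Cdc42ep3, En2, Six3os1, Thbd and Cped1 had 1 or more in every list. The peaks were mapped in WT cultures alone, where Tg had no fragment and Tgm7 was at 0.125 and 0 CPM. A peak could hardly be found on either, so its lack there is no result. Gad1 and Cacna1g were also low in WT. Fam135b and Anxa3, which were well expressed in WT, fell without a peak, and Thbd and Six3os1 fell with peaks. In the terciles of genes by mean CPM, the genes with peaks in all lists had medians of 0.06, 0.18 and 0.06 (lowest to highest), against −0.06, −0.06 and −0.13 for genes in no list. In the terciles by exon length they had 0.22, 0.11 and 0.06, against 0.01, −0.13 and −0.20. The medians of the first class were above those of the second in each tercile.

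The KO effect of this batch was set against that of the first RNA batch, which holds 3 KO and 3 WT libraries from other culture lines, in 1 fit of all 10 libraries with a term for the difference between the batches. In that fit 5743 of 13639 genes were called in batch 3 (42.1%) and 8721 in batch 1 (63.9%). Both batches called 4623 genes, 4482 of them in the same direction and 141 in opposite directions. The difference itself was called for 1927 genes (14.1%), with the KO effect higher in batch 3 for 1120 (8.21%) and lower for 807 (5.92%). It was smaller in size in batch 3 for 1397 of them and larger for 530. These counts moved widely with single libraries, to 224 and 262 without WT library 1 of batch 3 and to 2254 and 2027 without KO library 1 of batch 3. The batches also differ in lines, date and merged assembly, which cannot be told apart from each other. CPM in this paragraph and the next are scaled over all 10 libraries, and so differ slightly from those above.

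Ccnd1 shows the commoner case, with a fall of 1.76 in batch 3 and 3.52 in batch 1 (difference 1.76, SE 0.22, adjusted p = 0.00154). Its KO mean was 652 CPM in batch 3 and 168 CPM in batch 1, against WT means of 2214 CPM in batch 3 and 1928 CPM in batch 1. Of 21 DNA replication genes 17 were called for the difference, among them Mcm6, which fell by 0.76 in batch 3 and 2.28 in batch 1. Of the glycolysis and hypoxia list 15 of 18 were called for it and of the cholesterol list 11 of 18. Anxa3 was at 2.15 CPM in KO and 65.2 CPM in WT of batch 3, and at 0.117 CPM in KO and 65.7 CPM in WT of batch 1 (difference 4.08, SE 0.79, adjusted p = 0.0115). Its call was lost without KO library 2 of batch 3 (3.50, adjusted p = 0.125). For Ccnd1 and Anxa3 the WT levels of the batches were close and the KO levels apart. The Anxa3 level in KO of batch 1 was near the floor, so its difference is no measure of size.

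Other genes turned. Chrm3, a muscarinic receptor gene, was at 49.5 CPM in KO and 30.5 CPM in WT of batch 3, and at 3.82 CPM in KO and 26.5 CPM in WT of batch 1 (difference 3.47, SE 0.44, adjusted p = 0.00177). The transcript 2610008E11Rik was at 9.06 CPM in KO and 46.3 CPM in WT of batch 3, and at 307 CPM in KO and 82.3 CPM in WT of batch 1 (difference −4.28, adjusted p = 0.00123). Fos was at 75.6 CPM in KO and 272 CPM in WT of batch 3, and at 130 CPM in KO and 78.4 CPM in WT of batch 1 (difference −2.58, SE 0.36, adjusted p = 0.00321). Fosb fell by 4.61 in batch 3 and by 1.25 in batch 1. For these immediate early genes it was the WT level that differed most between the batches.

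**Figure D5:**
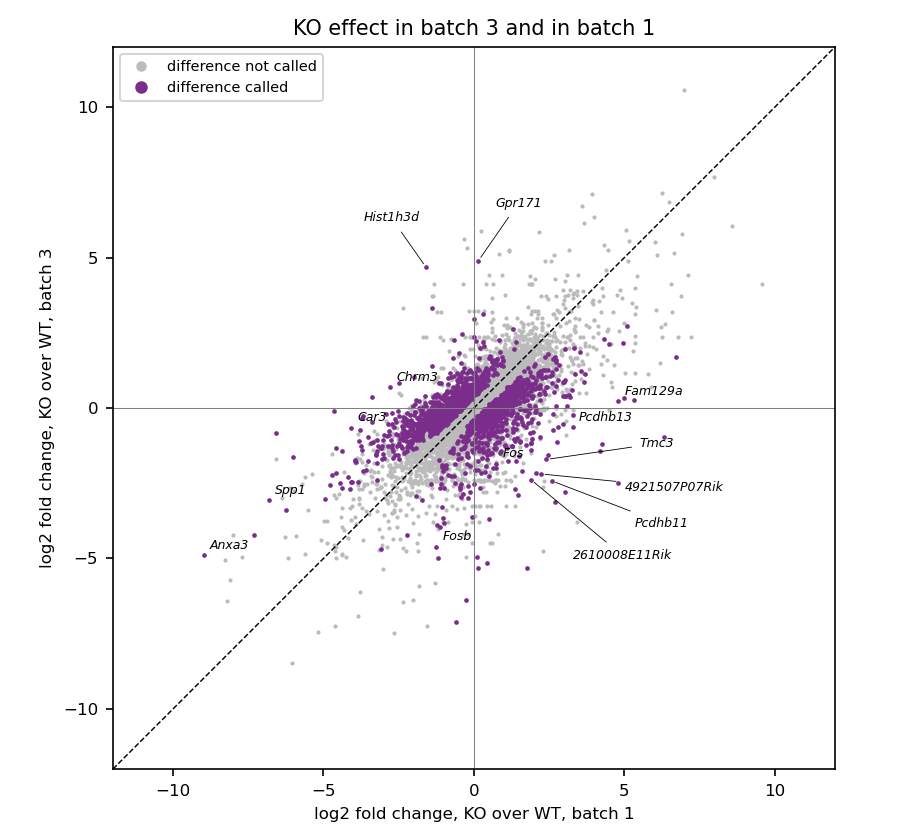
Log2 fold change, KO over WT, of each gene in batch 3 (vertical axis) against batch 1 (horizontal axis), from the fit of both batches; purple points are the 1927 genes called for a difference and the dashed line marks equal effects. Ccnd1 lies at −1.76 and −3.52, Fos falls by 1.85 in batch 3 and is at 0.73 in batch 1.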

How the data were processed

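Polyadenylated RNA of 2 KO and 2 WT culture lines was sequenced. Per the file headers, the authors deposited an estimated count of fragments per locus and library, not normalized, and the FPKM, scaled per kilobase and per M fragments. The submitters' processing notes name TopHat2 2.1.0, TopHat, Cufflinks, Cuffdiff and the build mm10, with no role or order. The authors also deposited MACS2 broad peaks with a fold enrichment ratio over input and −log10 p and q values, and the notes name Bowtie2 2.3.1. The strand setting of the counting is not given in the sources used here.

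Estimated counts (2.31% not whole at a tolerance of 1e-09) were rounded and summed per gene symbol. Loci without a known gene (0.45% to 0.66% of fragments) were left out. Tests were edgeR 4.0.16 quasi-likelihood fits in R 4.3.3 with TMM scaling, a filter of 0.643 CPM in at least 2 libraries and Benjamini-Hochberg adjustment. Alternatives were DESeq2 1.42.0, limma 3.58.1 on log2(FPKM + 1) or log2(FPKM + 0.1), other scalings, no filter, joined loci left out, each library left out and a covariate for sex-linked transcripts. p-values measure the spread between culture lines. On simulated data of 12834 genes, 50 genes were changed at each of 1.5, 2, 3 and 4-fold, drawn from the better counted genes alone. The test recovered 30%, 72%, 96% and 98% of them, with 16 false calls among the unchanged genes. Recovery at low counts, or with as many changed genes as were called in the data, was not simulated. A batch 2 table that was byte for byte that of batch 1 was not used.

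The members and gene lists were chosen with earlier results of these data known. Named genes are Mettl14, the 12 largest called rises and falls without overlap at 5 CPM or more, up to 4 called members per list, up to 6 per direction for the batch difference and up to 6 per promoter class. Genes outside this rule were chosen after their values were seen. Promoter sequences are from RefSeq.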

Additional observations from a re-analysis of the deposited data

Results flagged for a closer look

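The genes below drew attention because their KO effect, as log2 fold change of KO over WT, differed between batch 3 and batch 1 in edgeR's test of the difference itself. Differences are batch 3 minus batch 1, with the fold change of each batch beside them, and adjusted p-values ran up to 0.0499. Culture lines, date and merged assembly differ between the batches as well and cannot be told apart.

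The effect was smaller in size in batch 3 for these genes. Anxa3 had a difference of 4.08 (−4.90 in batch 3 and −8.98 in batch 1), and Asns one of 1.44 (−0.95 in batch 3 and −2.39 in batch 1). Car3 had a difference of 3.42 (−0.65 in batch 3 and −4.07 in batch 1), and Ccnd1 one of 1.76 (−1.76 in batch 3 and −3.52 in batch 1). Ccne2 had a difference of 1.95 (−1.06 in batch 3 and −3.01 in batch 1), and Cdkn1a one of 0.53 (−0.91 in batch 3 and −1.45 in batch 1). Dhh had a difference of 3.08 (−4.21 in batch 3 and −7.30 in batch 1), and Eno1 one of 1.28 (−0.96 in batch 3 and −2.24 in batch 1). Id4 had a difference of −2.22 (1.15 in batch 3 and 3.37 in batch 1), and Mcm6 one of 1.52 (−0.76 in batch 3 and −2.28 in batch 1). Mest had a difference of 1.39 (−2.46 in batch 3 and −3.85 in batch 1), and Pfkp one of 1.06 (−1.32 in batch 3 and −2.38 in batch 1). Pgk1 had a difference of 1.04 (−0.69 in batch 3 and −1.73 in batch 1), and Pola1 one of 0.89 (−0.96 in batch 3 and −1.84 in batch 1). Rfc4 had a difference of 0.86 (−1.06 in batch 3 and −1.91 in batch 1), and Sema3c one of 1.54 (−2.05 in batch 3 and −3.59 in batch 1). Spp1 had a difference of 3.76 (−3.06 in batch 3 and −6.81 in batch 1), and Spry4 one of 0.96 (−1.23 in batch 3 and −2.19 in batch 1). Tnc had a difference of 0.83 (−2.40 in batch 3 and −3.23 in batch 1).

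It was larger in size in batch 3 for these genes. Epha3 had a difference of −1.58 (−2.26 in batch 3 and −0.67 in batch 1), and Ezh2 one of −0.63 (−0.97 in batch 3 and −0.34 in batch 1). Fosb had a difference of −3.35 (−4.61 in batch 3 and −1.25 in batch 1), and Hdac9 one of −0.58 (−1.74 in batch 3 and −1.16 in batch 1). Ier2 had a difference of −1.23 (−1.87 in batch 3 and −0.64 in batch 1), and Nr2e1 one of −1.03 (−1.99 in batch 3 and −0.96 in batch 1). Rbm15 had a difference of 0.72 (0.97 in batch 3 and 0.25 in batch 1), and Rcan2 one of −1.59 (−4.68 in batch 3 and −3.09 in batch 1). Vldlr had a difference of 0.56 (0.83 in batch 3 and 0.27 in batch 1), and Ythdf1 one of 0.43 (1.17 in batch 3 and 0.74 in batch 1).

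The fitted fold changes of these genes had opposite signs in the batches. Those of Mvk, 2900026A02Rik, Msmo1 and Cdkn1c in batch 1 were close to 0, so these 4 need not be reversals. 2610008E11Rik had a difference of −4.28 (−2.38 in batch 3 and 1.90 in batch 1), and 2900026A02Rik one of −1.90 (−1.76 in batch 3 and 0.13 in batch 1). 4921507P07Rik had a difference of −4.42 (−2.19 in batch 3 and 2.23 in batch 1), and Cdkn1c one of −1.60 (−1.35 in batch 3 and 0.25 in batch 1). Chrm3 had a difference of 3.47 (0.70 in batch 3 and −2.77 in batch 1), and Fos one of −2.58 (−1.85 in batch 3 and 0.73 in batch 1). Insm1 had a difference of −1.44 (−0.89 in batch 3 and 0.54 in batch 1), and Msmo1 one of 0.72 (0.56 in batch 3 and −0.16 in batch 1). Mvk had a difference of 0.73 (0.65 in batch 3 and −0.08 in batch 1), and Pcdhb11 one of −5.01 (−2.42 in batch 3 and 2.59 in batch 1). Pdk1 had a difference of 1.73 (1.18 in batch 3 and −0.55 in batch 1).

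Another 5 genes were too low in batch 3 to be tested there alone, so their fitted differences depend on the prior count and are no measure of size. Hist1h3d was at 0.185 CPM in KO and 0 CPM in WT of batch 3, and at 21.0 CPM in KO and 63.4 CPM in WT of batch 1 (difference 6.27). Gpr171 was at 0.220 CPM in KO and 0 CPM in WT of batch 3, and at 9.27 CPM in KO and 8.38 CPM in WT of batch 1 (difference 4.75). Fam129a was at 0.573 CPM in KO and 0.471 CPM in WT of batch 3, and at 33.2 CPM in KO and 1.19 CPM in WT of batch 1 (difference −4.57). Tmc3 was at 0.130 CPM in KO and 0.444 CPM in WT of batch 3, and at 8.42 CPM in KO and 1.57 CPM in WT of batch 1 (difference −4.11). Pcdhb13 was at 0.190 CPM in KO and 0.308 CPM in WT of batch 3, and at 7.00 CPM in KO and 0.722 CPM in WT of batch 1 (difference −3.92). Hist1h3d and the Pcdhb genes belong to families between whose members the authors' counting could split fragments, and Gpr171 lies within Med12l. Some genes listed further up also had a group near the floor, and their differences share this limit. Anxa3 was at 0.059 to 0.218 CPM and Dhh at 0.0729 to 0.295 CPM in KO of batch 1. In KO of batch 3, 4921507P07Rik was at 0.139 and 0.241 CPM. Both it and Pcdhb11 passed the low-count filter of batch 3 through the WT libraries alone.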

How the results depend on the processing

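No paired analysis was possible because the KO and WT libraries come from different culture lines and the labels give them no shared replicate numbers. A fit with the split by sex-linked transcripts as a covariate, added after seeing the data and leaving 1 residual degree of freedom, called 2569 genes higher and 2254 lower, and 81 and 142 list members. It lost the calls of 2610008E11Rik, Fgfr3 and Fos (adjusted p = 0.305, 0.271 and 0.106) and called Car3 and Mettl14, with Mettl14 at −0.48 (adjusted p = 0.0361). Of 146 named calls, 88 held under each of the 12 alternatives, 58 were lost under at least 1 and 36 of these with all 4 libraries in the fit. None reversed. The calls lost numbered 24 without KO library 1, 21 without KO library 2, 26 without WT library 1 and 39 without WT library 2, and 28 with limma on log2(FPKM + 1). Leaving out single libraries gave 1208 to 2969 genes called higher and 871 to 2669 called lower, 41 to 100 list members higher and 84 to 150 lower, and 224 to 2254 genes higher and 262 to 2027 lower for the batch difference. List members higher numbered 44 with limma on log2(FPKM + 1), against 70, and genes lower for the batch difference 1225 with DESeq2, against 807. The causes were not tested.

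The medians of the 4 lost and gained classes and of m6A in all lists kept their sign except where stated; other classes, with medians near 0, changed sign under some settings. With H3K27ac lost the median was −0.85 for a window of 2500 bases, −0.87 for peaks of −log10 q of at least 5, −0.72 for an overlap of 500 bases, −1.41 for genes below the median CPM, 0.43 (reversed) above it, and −1.17 to −0.997 without single libraries. With H3K27ac gained it was 0.45, 0.47 and 0.76 for the same 3 peak settings and 0.83 to 1.08 without single libraries. With H3K27me3 lost it was 0.29, 0.80 and 1.07, and 0.51 to 0.70 without single libraries. With H3K27me3 gained it was −0.54, −1.18 and −0.90, −0.38 above the median CPM, and −0.87 to −0.70 without single libraries. With m6A in all lists it was 0.21 for −log10 q of at least 5, 0.029 for a peak in any list, 0.18 in the middle CPM tercile and 0.22 in the lowest length tercile. With m6A in no list it was −0.13 in the highest CPM tercile, 0.015 in the lowest length tercile (a change of sign), −0.13 in the middle and −0.20 in the highest, and −0.12 to −0.056 without single libraries. The splits by CPM and length were chosen after seeing the data. Depth limits genes near the floor of 3 counts.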
